A study of Mus musculus with 4 samples.

Results

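Interferon-stimulated genes are genes that cells switch on in answer to interferons. A fixed list of 38 mouse genes was followed through single-cell RNA sequencing of the submandibular salivary gland. The genes were chosen by name, with earlier results of these data known. Of these 38, 37 had a gene ID in the feature lists of all 4 libraries, among 30406 genes that did. Mx1 had its ID in the list of 1 library only and entered no comparison. The gland cells came from female C57BL6/J mice, and the protocol names both submandibular and sublingual glands at harvest. Cells carrying EpCAM, an epithelial surface protein, or Ter119, found on cells of the erythroid lineage, had been removed with magnetic beads, and dead cells were depleted. In the ligated group a metal clip had closed the chief ducts draining both glands for 14 days, and in the mock group the ducts had been exposed without a clip for the same time. The ligated group had 1 library and the mock group had 3, numbered 1 to 3 in the labels. Whether libraries stand for different animals or for pools is not said in the labels, so p-values measure only the spread between these libraries. The comparison asks how the cells of an obstructed gland differ from those of an open one.

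Type I interferons bind the receptor IFNAR, and the kinases JAK1 and TYK2 then pass the signal on to transcription factors. STAT2 and IRF9 are part of a complex that binds the interferon-stimulated response element (ISRE) of target genes. Interferon gamma acts through a separate receptor and on gamma-activated sites (GAS). The induced proteins sense foreign nucleic acid, block viral translation, replication or release, attack vacuoles that hold pathogens, or amplify the response, and many cells keep a low level of them without infection.

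The promoter sequences show which of these elements lie next to the genes described here. A RefSeq promoter window of 300 bases in build GRCm38.p6, from 250 bases before to 50 after the gene start, was matched for 29 of the 38 genes. The ISRE core GAAANNGAA, searched on both strands, occurred in the window of 18 of these 29 genes (62.1%), against 9.76% of all 27025 genes with a window. The GAS motif TTCNNNGAA, which reads the same on both strands, occurred in 8 of 29 (27.6%), against 9.55% of all genes. The search allows the motifs to overlap, and a match describes letters only. The 6 stretches that follow are the 250 bases upstream of the start, 5′ to 3′ on the gene's strand, with the ISRE core in capitals. They belong to the genes with the smallest unadjusted p in any cell class among those with a window.
Ifi44 (chr3:151749911-151750160, minus strand): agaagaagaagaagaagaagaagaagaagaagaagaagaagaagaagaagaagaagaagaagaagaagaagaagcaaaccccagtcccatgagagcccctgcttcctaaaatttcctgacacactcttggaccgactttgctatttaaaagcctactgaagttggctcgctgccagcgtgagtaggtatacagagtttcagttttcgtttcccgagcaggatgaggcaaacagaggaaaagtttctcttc
Oasl2 (chr5:114896684-114896933, plus strand): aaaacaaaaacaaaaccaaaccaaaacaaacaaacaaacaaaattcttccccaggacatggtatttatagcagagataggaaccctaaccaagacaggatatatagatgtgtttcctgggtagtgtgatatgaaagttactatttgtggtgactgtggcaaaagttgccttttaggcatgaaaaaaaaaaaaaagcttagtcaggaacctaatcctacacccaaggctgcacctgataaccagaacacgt
Irf7 (chr7:141266425-141266674, minus strand): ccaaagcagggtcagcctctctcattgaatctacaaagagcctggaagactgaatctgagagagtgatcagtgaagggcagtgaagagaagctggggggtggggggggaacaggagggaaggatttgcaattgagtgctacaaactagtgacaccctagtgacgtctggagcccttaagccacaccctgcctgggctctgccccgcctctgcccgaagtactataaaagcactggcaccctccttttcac
Ifi47 (chr11:49076337-49076586, plus strand): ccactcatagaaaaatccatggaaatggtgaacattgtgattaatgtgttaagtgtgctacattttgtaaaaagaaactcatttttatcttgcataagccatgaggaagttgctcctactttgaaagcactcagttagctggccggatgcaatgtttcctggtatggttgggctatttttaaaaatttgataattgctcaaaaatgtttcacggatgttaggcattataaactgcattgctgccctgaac
Rsad2 (chr12:26456453-26456702, minus strand): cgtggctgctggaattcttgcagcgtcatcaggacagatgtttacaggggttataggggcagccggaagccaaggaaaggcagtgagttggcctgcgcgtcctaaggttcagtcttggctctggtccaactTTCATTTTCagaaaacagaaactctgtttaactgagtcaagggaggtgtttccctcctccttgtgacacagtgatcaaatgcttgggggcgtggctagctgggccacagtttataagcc
Irgm1 (chr11:48871421-48871670, minus strand): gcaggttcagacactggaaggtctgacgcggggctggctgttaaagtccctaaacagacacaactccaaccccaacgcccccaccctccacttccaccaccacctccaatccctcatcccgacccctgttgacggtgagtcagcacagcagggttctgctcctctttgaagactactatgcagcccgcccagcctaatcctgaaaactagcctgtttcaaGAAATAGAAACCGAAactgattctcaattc
All starts here are those of RefSeq. The stretch of Irgm1 held 2 overlapping ISRE cores between bases 30 and 16 before the start, and that of Rsad2 held 1 between bases 119 and 111. The GENCODE annotation, used for the gene positions below, starts Irgm1 farther upstream (chr11:48861968-48871683, minus strand). By that annotation the printed Irgm1 stretch lies inside the gene, and the stretches of Irf7 and Ifi44 overlap their genes in part. The stretches of Ifi44, Oasl2, Irf7 and Ifi47 held none of these exact letters, which says nothing about the factors that bind there. Ifi44 still counts among the 18 genes, through a match in its window that reaches past the printed bases.

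Several of the genes are neighbours in mm10, the build that the submitters' processing notes name and that corresponds to GRCm38. The IFIT genes lie together on chromosome 19, with Ifit2 at chr19:34550694-34576419, Ifit3 at chr19:34583531-34588731, Ifit3b at chr19:34607970-34613401 and Ifit1 at chr19:34640871-34650009. Rsad2 (chr12:26442746-26456452) and Cmpk2 (chr12:26469204-26479837) lie side by side on opposite strands. Gbp7, Gbp3 and Gbp2 follow each other on chromosome 3 from 142530342 to 142638008. Irf7 is at chr7:141262706-141266481, Isg15 at chr4:156199424-156200818, Bst2 at chr8:71534255-71537456, Ifi27l2a at chr12:103442167-103443680 and Irgm1 at chr11:48861968-48871683. Coordinates cover whole genes with exons, introns and untranslated regions. Ifit3 and Ifit3b are closely related copies, and no source used here gives how reads that match both were counted, so their separate levels are uncertain.

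The 4 libraries held 13790 (ligated), 4798, 9627 and 13194 (mock 1 to 3) cell barcodes and 29897488 to 80187555 UMIs (unique molecular identifiers, which count captured transcripts once each), and 4518 to 12689 cells per library were kept. Pairs of libraries shared 11 to 61 barcode sequences, at most 0.634% of either library. By their file headers, mock 2 and mock 3 were made with Cell Ranger 7.0.0, while mock 1 and the ligated library were made with version 6.0.1. The mock libraries are thus split by software version. In a fit with a term for the version, the fold change is therefore that of the ligated library against mock 1 alone. Such a fit takes its spread from mock 2 and mock 3. Cells were clustered without the interferon-stimulated genes and named from marker genes. Classes are called by the name of their markers, in place of "endothelial-like" and so on. The 6 classes tested were endothelial (4077, 2610, 4969 and 6663 cells in the ligated library and mock 1, 2 and 3), fibroblast (1212, 206, 425 and 578), mural (568, 266, 335 and 482), NK or ILC1 (3296, 652, 994 and 1494), T (1446, 160, 254 and 347) and macrophage or monocyte cells (543, 56, 268 and 344). UMIs were summed per library and class and are given as CPM, a gene's count relative to all UMIs of the class in a library, scaled by the trimmed mean of M values within each class. CPM of UMIs are not divided by gene length. Values within single clusters and sums of markers are plain CPM without this scaling. Since only 1 library was ligated, the mock libraries alone give the spread (2 residual degrees of freedom), and the test takes the ligated condition to have the same spread. An exact permutation test of 1 library against 3 cannot go below p = 0.25 and was not used.

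Averaged over the 4 libraries, endothelial cells held the highest levels of most of the genes. The mean CPM over the 4 libraries was highest in endothelial cells for 29 of the 37 genes, and for 15 of these the lowest endothelial library lay above every library of the other 5 classes. Of the 10307 genes with a mean of at least 15.2 CPM in some class, which is the lowest such mean of a member, 24.8% were highest in endothelial cells and 8.65% without such overlap. Among the 15 was Rsad2, which encodes viperin, an inhibitor of viral replication and budding, at a mean of 788.6 CPM in endothelial cells against 113 CPM in macrophages, the next class. Iigp1, an immunity-related GTPase that attacks pathogen vacuoles, stood at 506.9 CPM against 220 CPM in fibroblasts, and Gbp7, a guanylate-binding protein, at 307 against 102 CPM in T cells. Ifi44 stood at 182 CPM against 24.8 CPM in fibroblasts. Macrophages held the highest mean of 5 genes, with no overlap for Dhx58, Oas1a and Oas2, and T cells that of Zbp1, Oas3 and Ifi47, each with overlap. NK or ILC1 cells had the lowest mean of 24 genes, such as Oasl2 at 3.24 CPM against 86.7 CPM in endothelial cells. These levels come from a separate scaling in each class, and the differences between classes were not tested.

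The summed level of the 37 genes gives the size of the whole programme per class. In T cells the sum was 3512 CPM in the ligated library and 2284, 2694 and 2417 CPM in mock 1, 2 and 3. In fibroblasts it was 3446 CPM against 2482, 2952 and 2770 CPM. In NK or ILC1 cells it was 1648 CPM against 1452, 1446 and 1422 CPM. In these 3 classes the ligated library lay above every mock library, by a log2 ratio to the mock mean of 0.51, 0.33 and 0.19. In endothelial cells the sum was 5539 CPM in the ligated library, inside the mock range of 5425 to 6586 CPM. In mural cells it was 1783 CPM, inside a range of 983 to 2041 CPM, and in macrophages 3610 CPM, inside 3440 to 4885 CPM. In these 3 classes mock 1 was the lowest of the 4 libraries. Over mock 1 alone the log2 ratio was 0.62 in T cells, 0.47 in fibroblasts, 0.86 in mural cells, 0.18 in NK or ILC1 cells, 0.03 in endothelial cells and 0.07 in macrophages. No test was made of a sum.

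**Figure D1:**
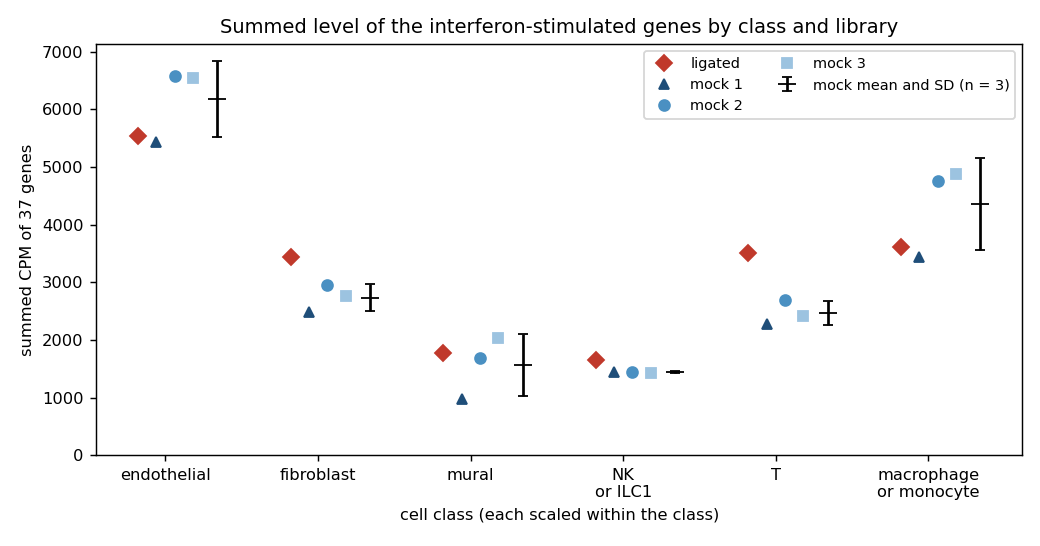
Summed level (CPM) of the 37 interferon-stimulated genes in each cell class, with 1 point per library and the mean and SD of the 3 mock libraries. The ligated library lies above every mock library in fibroblasts, NK or ILC1 cells and T cells, and inside the mock range in the other classes.

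No single gene passed the test in any class. With edgeR's quasi-likelihood F test and Benjamini-Hochberg adjustment over all genes of a class, 0 members passed an adjusted p of 0.05 in each of the 6 classes, where 0% of all genes tested passed in endothelial, fibroblast, mural, NK or ILC1, T and macrophage cells alike. Results are therefore given as levels per library and as the position of the ligated library against the mock range. That position has a high background: in endothelial cells 29% of the 14143 genes tested lay above every mock library and 27.2% below. The corresponding shares were 29.8% and 28.5% in fibroblasts (12480 genes), 27.3% and 25.6% in mural cells (11551 genes), 27% and 27.9% in NK or ILC1 cells (12309 genes), 28.2% and 26.9% in T cells (10450 genes) and 25.9% and 23.4% in macrophages (9467 genes).

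In fibroblasts, 22 of the 36 members tested lay above every mock library and 1 (Irgm1) below, where 29.8% and 28.5% of all genes did. The median log2 fold change was 0.24 over the 36 members and -0.04 over all genes. Oas3, the member that did not pass the filter, had 19 UMIs after ligation, and 0, 1 and 0 in mock 1, 2 and 3. With edgeR, 6 members were higher and 0 lower at an unadjusted p below 0.05, where 11.9% of all genes passed that level in either direction. With DESeq2, 0 members passed after adjustment, where 254 of the 18977 genes tested did.

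Among the transcription factors, Irf7, the amplifier of the type I interferon response, stood at 126 CPM in ligated fibroblasts and at 34.1, 69.1 and 51.1 CPM in mock 1, 2 and 3, a log2 fold change of 1.29 ± 0.39 (SE; edgeR, adjusted p = 0.38). Stat2 was at 57.2 CPM against 54.2, 56.8 and 53.7 CPM. The ligated value of Irf7 was the highest of the 4 libraries by a wide margin, and that of Stat2 only just. Zbp1, a sensor of Z-form nucleic acids, stood at 27.9 CPM against 11.7, 12.6 and 11.1 CPM, a log2 fold change of 1.24 ± 0.25 (edgeR, adjusted p = 0.25). The 3 mock libraries lay close together for this gene. Oasl2, an OAS-like protein, stood at 106 CPM against 65.5, 59.0 and 61.2 CPM, a log2 fold change of 0.78 ± 0.19 (edgeR, adjusted p = 0.29). Isg15, a ubiquitin-like modifier attached to proteins after interferon, stood at 184 CPM against 54.2, 95.5 and 95.2 CPM, a log2 fold change of 1.17 ± 0.36 (edgeR, adjusted p = 0.39). Its deconjugating enzyme Usp18 was at 30.6 CPM against 19.6, 27.0 and 19.9 CPM. Both members of this system thus lay above the mock range.

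Of the GTPases, Ifi47, an immunity-related GTPase, stood at 49.8 CPM in ligated fibroblasts against 23.8, 28.9 and 29.98 CPM, a log2 fold change of 0.85 ± 0.23 (edgeR, adjusted p = 0.35). In this group 5 of 7 genes lay above the mock range. Irgm1, a regulator of the same GTPase family, stood at 29.9 CPM against 31.8, 55.1 and 50.9 CPM, next to mock 1. Ifi44, a gene named for its induction by interferon, stood at 46.1 CPM against 13.6, 19.1 and 20.4 CPM, a log2 fold change of 1.37 ± 0.29 (edgeR, adjusted p = 0.26). Among the members with most UMIs in fibroblasts, Ifi27l2a, a small interferon-induced protein, was at 642 CPM against 542, 474 and 444 CPM and Bst2, the tetherin that holds budding virus at the cell surface, at 432 CPM against 264, 412 and 382 CPM. Iigp1 was at 259 CPM against 182, 207 and 231 CPM, Ifit3 at 158 CPM against 63.1, 128 and 103 CPM, and Sp100, a nuclear body protein, at 113 CPM against 108, 183 and 182 CPM. The first 4 of these lay above the mock range, and Sp100 next to mock 1.

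The ligated and mock fibroblasts lay mostly in different clusters. Clustering made no correction for differences between libraries, so in any class different cells and processing differences cannot be told apart. A cluster led by Spp1, Cilp and Thbs4 held 1170 of the 1212 ligated fibroblasts, but 69, 36 and 57 of those in mock 1, 2 and 3, where most cells (125, 383 and 514) were in a cluster led by Lsamp, Fgf10 and Lama2. Within the Spp1 cluster the summed level, not scaled, was 3228 CPM in the ligated library against 1824, 2739 and 3954 CPM, inside the mock range. In this cluster 10 of 37 members lay above every mock library and 0 below, where 30.2% and 13.9% of all genes with a UMI did. The share above was thus near that of all genes, unlike in the whole class. The sum of the whole class without scaling was 3219 CPM against 2429, 3094 and 2862 CPM. In the Spp1 cluster Isg15 was at 177 CPM against 30.2, 156 and 260 CPM and Irf7 at 119 CPM against 23.8, 64.7 and 134 CPM, both inside the mock range. Ifi44 (44.4 CPM against 7.94, 27.0 and 21.0 CPM) and Oasl2 (100.2 CPM against 46.0, 53.9 and 50.3 CPM) were above it. The mock values rest on 5 UMIs per library for Ifi44 and on 10 to 29 for Oasl2. Markers of T cells summed to 122 CPM in ligated fibroblasts against 23.3, 65.1 and 31.5 CPM in mock 1, 2 and 3, with 9 of 12 above every mock library and 0 at 0 UMIs. Macrophage markers summed to 726 CPM against 437, 362 and 350 CPM, with 11 of 12 above and 0 at 0 UMIs. Their part in the levels of Zbp1 and the other genes in fibroblasts was not tested. Without mock 1, 21 members passed (18 higher, 3 lower), and with a term for the Cell Ranger version 18 did (17 higher, 1 lower). Of all genes, 56.8% and 26.5% passed in these fits, which both take the spread from mock 2 and mock 3 alone, and the members' share without mock 1 was near that of all genes.

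In T cells, 21 of the 36 members tested lay above every mock library and 7 below, where 28.2% and 26.9% of all genes did. The median log2 fold change was 0.32 over the members and -0.02 over all genes. Ifi27l2a stood at 988 CPM in the ligated library against 302, 456 and 386 CPM, a log2 fold change of 1.37 ± 0.25 (edgeR, adjusted p = 0.27). Without this gene the log2 ratio of the sums was 0.28 in place of 0.51. DESeq2 (adjusted p = 0.030) and edgeR without the filter on low counts (adjusted p = 0.0165) called this gene and no other member, where 0.734% and 0.643% of all genes passed. With edgeR, 7 members were higher and 1 lower at an unadjusted p below 0.05, where 11.1% of all genes passed that level in either direction.

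Irf7 stood at 90.4 CPM in ligated T cells against 47.8, 46.7 and 52.9 CPM, a log2 fold change of 0.88 ± 0.24 (edgeR, adjusted p = 0.39). The GTPase gene Ifi47 stood at 186 CPM against 116, 107 and 97.1 CPM, a log2 fold change of 0.80 ± 0.22 (edgeR, adjusted p = 0.39). Usp18 was at 32.3 CPM against 18.3, 18.8 and 20.9 CPM, a log2 fold change of 0.73 ± 0.28 (edgeR, adjusted p = 0.44). All 3 genes lay above every mock library, and for Ifi47 mock 1 was also above mock 2 and mock 3. Rsad2 lay on the other side, at 31.5 CPM against 56.9, 63.8 and 77.6 CPM, a log2 fold change of -1.08 ± 0.31 (edgeR, adjusted p = 0.40). Endothelial cells held far more Rsad2. Endothelial markers in the T class summed to 257 CPM in the ligated library against 939, 866 and 1230 CPM in mock 1, 2 and 3, with 8 of 8 below every mock library and 0 at 0 UMIs. Their part in the Rsad2 level was not tested. With the highest doublet scores removed, the log2 fold change of Rsad2 in T cells was 0.01. Macrophages held the highest mean level of Ifi27l2a, and macrophage markers in the T class summed to 851 CPM in the ligated library against 684, 470 and 460 CPM, with 10 of 12 above every mock library and 0 at 0 UMIs. The list includes Ly6c2, which was also a leading gene of the T clusters led by Cd8b1 and by Cd3e. The sum is therefore not a measure of macrophage RNA alone. The part of these markers in the Ifi27l2a level was not tested. Of the members with most UMIs, Sp100 was at 325 CPM against 225, 330 and 294 CPM, Bst2 at 206 CPM against 182, 243 and 227 CPM, and Samhd1, which limits the nucleotides that viruses need, at 156 CPM against 133, 119 and 105 CPM. Only Samhd1 among these 3 lay above the mock range. Oas2, not tested, had 19 UMIs after ligation, and 0, 2 and 2 in mock 1, 2 and 3.

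The T class held 3 clusters. In the cluster led by Cd8b1, Cd8a and Trac, with 748 ligated and 71, 122 and 161 mock cells, the summed level was 5215 CPM against 2904, 3862 and 3305 CPM. There 23 of 37 members lay above every mock library and 3 below, where 26.05% and 18.9% of all genes with a UMI did. Ifi27l2a was at 1929 CPM in it against 712.7, 932.8 and 877.4 CPM, Isg15 at 232 CPM against 96.5, 180 and 116 CPM, and Zbp1 at 150.0 CPM against 83.1, 81.1 and 67.3 CPM. In the cluster led by Cd3e, Cd3d and Cd3g the sum was 2255 CPM against 1279, 2162 and 1814 CPM, with 19 members above and 3 below, where 26.8% and 18.5% of all genes with a UMI were. In the cluster led by Cd163l1, Il7r and Tcrg-C1, genes found in gamma-delta T cells, it was 2246 CPM against 2606, 1850 and 2213 CPM, inside the mock range. The difference between clusters was not tested. Without mock 1, 20 members passed in the T class (17 higher, 3 lower), where 39.3% of all genes did. With the version term, under which 4.93% of all genes passed, 5 members did, all higher: Irf7, Isg15, Ifi47, Sp100 and Ifi27l2a.

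In NK or ILC1 cells, 21 of the 36 members tested lay above every mock library and 3 below, where 27% and 27.9% of all genes did. The median log2 fold change was 0.27 over the members and -0.03 over all genes. Irf7 stood at 65.6 CPM in the ligated library against 35.6, 37.4 and 29.1 CPM, a log2 fold change of 0.95 ± 0.22 (edgeR, adjusted p = 0.61). Ifit3, an IFIT protein that takes part in the block of viral translation, stood at 24.5 CPM against 15.5, 10.2 and 9.99 CPM, a log2 fold change of 1.05 ± 0.32 (edgeR, adjusted p = 0.61). Ifi44 was at 15.4 CPM against 10.5, 7.88 and 9.99 CPM, Dhx58, a regulator of the RIG-I-like sensors, at 9.82 CPM against 6.69, 4.65 and 4.84 CPM, and Isg15 at 62.1 CPM against 48.5, 42.2 and 41.8 CPM. All 5 lay above the mock range. At an unadjusted p below 0.05, 2 members were higher and 0 lower with edgeR, a share near the 5.7% of all genes that passed that level. With DESeq2, 0 members passed after adjustment, where 51 of the 19050 genes tested did.

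Of the members with most UMIs in these cells, Sp100 was at 238 CPM against 239, 277 and 270 CPM, Irf1 at 116 CPM against 94.1, 118 and 118 CPM, Bst2 at 114 CPM against 96.7, 113 and 110 CPM, and Gbp7 at 101 CPM against 113, 70.2 and 62.9 CPM. Ifi47 was at 151 CPM against 126, 95.04 and 96.8 CPM. For 15 of the 36 tested members the ligated library and mock 1 both lay above mock 2 and mock 3, and for 7 both lay below, where 34.2% and 36.3% of all genes did. A cluster led by Gzmc, Cd7 and Tnni1 held 2974 of the ligated and 427 of the mock 1 cells but 12 and 30 of those in mock 2 and 3, which lay mostly in a cluster led by Dok6, Tmem163 and Tox (672 and 1025 cells). The software version and the makeup of this class therefore cannot be told apart. Fibroblast markers in the class summed to 144 CPM in the ligated library against 18.5, 8.55 and 21.7 CPM, with 8 of 8 above every mock library and 0 at 0 UMIs, and their part in these levels was not tested. Without mock 1, 20 members passed (17 higher, 3 lower), where 57.3% of all genes did, and with the version term 8 did (7 higher, 1 lower), where 12.5% did. Oas2, not tested, had 8 UMIs after ligation, and 0, 1 and 3 in mock 1, 2 and 3.

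In mural cells, which wrap small vessels, 14 of the 34 members tested lay above every mock library and 2 below, where 27.3% and 25.6% of all genes did. The median log2 fold change was 0.15 over the members and -0.04 over all genes. Over the members it was -0.055 without mock 1, 0.26 without mock 2 and 0.38 without mock 3. Irf7 stood at 74.5 CPM in the ligated library against 15.8, 33.3 and 50.1 CPM, a log2 fold change of 1.16 ± 0.58 (edgeR, adjusted p = 0.79). The 3 mock values were themselves spread widely. Gbp7 was at 93.8 CPM against 65.7, 75.6 and 73.0 CPM, Ifi27l2a at 162 CPM against 76.2, 110 and 134 CPM, Samhd1 at 69.1 CPM against 56.2, 53.4 and 53.6 CPM, and Isg15 at 139 CPM against 76.2, 104 and 128 CPM. These 4 lay above the mock range. Ifit3b lay below it, at 8.08 CPM against 12.6, 18.5 and 24.5 CPM, a log2 fold change of -1.20 ± 0.51 (edgeR, adjusted p = 0.79). The other member below it, Zbp1, rested on 2 UMIs after ligation, and 2, 10 and 9 in mock 1, 2 and 3.

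Bst2 in mural cells was at 163 CPM against 105, 219 and 281 CPM, Iigp1 at 93.8 CPM against 28.9, 101 and 132 CPM, and Ifi35, a protein that binds other interferon-induced factors, at 75.8 CPM against 66.2, 94.6 and 95.6 CPM, all inside the mock range. The members not tested were Oas1a, Oas2 and Oas3, with 4, 1 and 1 UMIs in the ligated library. Mock 2 and mock 3 held more of the members than mock 1, with a median log2 ratio of 0.88, so that the median of the ligated library against mock 1 alone was 0.76. A cluster led by Rgs5, Higd1b and Kcnj8 held 410 of the 568 ligated cells and 153, 46 and 75 of those in mock 1, 2 and 3, and its ligated sum of 2462 CPM lay inside the mock range of 1561 to 3472 CPM. T markers in the class summed to 129 CPM against 35.3, 46.5 and 59.4 CPM, with 10 of 12 above every mock library and 1 at 0 UMIs. Endothelial markers summed to 1057 CPM against 1087, 2017 and 2629 CPM, with 4 of 8 below every mock library and 0 above. The part of both lists in these levels was not tested. No member had an unadjusted p below 0.05 with edgeR or DESeq2, where 4.9% of all genes did with edgeR and 400 of 17333 did with DESeq2. Without mock 1, 5 passed (1 higher, 4 lower), where 17.1% of all genes did, and with the version term 10 did, all higher, where 6.7% did.

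In endothelial cells, 14 of the 37 members lay above every mock library and 7 below, where 29% and 27.2% of all genes did. The median log2 fold change was 0.04 over the members and -0.03 over all genes, and over the members -0.03 without mock 1, 0.06 without mock 2 and 0.07 without mock 3. Rsad2 stood at 618.9 CPM in the ligated library against 1058, 760.1 and 717.3 CPM, and Bst2 at 613.7 CPM against 682.8, 1118 and 1165 CPM. Both were below every mock library. Iigp1 was at 453 CPM against 410 (mock 1), 583 and 582 CPM, Sp100 at 270 CPM against 206, 378 and 378 CPM, and Gbp7 at 316 CPM against 358, 283 and 268 CPM, all inside the mock range.

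Irf7 stood at 206 CPM in ligated endothelial cells against 115, 158 and 161 CPM, above every mock library. Ifi27l2a, at a low level in this class, stood at 52.0 CPM against 13.4, 20.3 and 22.8 CPM, a log2 fold change of 1.46 ± 0.33 (edgeR, adjusted p = 0.42). DESeq2 called it at an adjusted p of 0.0497, where 1.1% of all genes passed. T cells, macrophages and fibroblasts held far more Ifi27l2a, and their markers in the endothelial class were also higher in the ligated library. T markers summed to 43.1 CPM in the ligated library against 3.98, 2.25 and 1.31 CPM (11 of 12 above every mock library), macrophage markers to 340 CPM against 88.2, 68.7 and 64.6 CPM (12 of 12) and fibroblast markers to 170 CPM against 24.5, 12.1 and 11.6 CPM (8 of 8), with 0 of each list at 0 UMIs. Their part in the Ifi27l2a level was not tested. Dhx58 was at 15.3 CPM against 10.8, 11.01 and 10.3 CPM (log2 fold change 0.51 ± 0.19, edgeR, adjusted p = 0.55) and Ifi44 at 219 CPM against 176, 172 and 162 CPM, both above the mock range. Ifit3b (33.5 CPM against 44.6, 70.5 and 67.2 CPM) and Ifit1 (75.6 CPM against 90.2, 107 and 103 CPM) were below it. Oas3 had 10 UMIs after ligation, and 2, 0 and 3 in mock 1, 2 and 3.

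For 16 of the 37 members in endothelial cells, Irf1, Isg15, Bst2 and Irgm1 among them, the ligated library and mock 1 both lay below mock 2 and mock 3, and for 7 both lay above, where 35.7% and 33.1% of all genes did. Irgm1 was at 53.9 and 58.4 CPM in the ligated library and mock 1, and at 118 and 119 CPM in mock 2 and mock 3. At an unadjusted p below 0.05, 1 member was higher and 0 lower with edgeR, where 9.02% of all genes passed that level. Without mock 1, 24 members passed (9 higher, 15 lower), where 62.1% of all genes did, and with the version term 21 did (17 higher, 4 lower), where 33.6% did, so the balance of directions turned with the handling of mock 1. The endothelial class too was spread over clusters differently, and mock 1 also differed from mock 2 and mock 3. A cluster led by Aqp1, Trp53i11 and Igfbp3 held 2972 of the 4077 ligated cells but 339, 42 and 44 of those in mock 1, 2 and 3. A cluster led by Cdkn1a, Sgk1 and Adamts1 held 1642 of the mock 1 cells. Another, led by Esm1, Car4 and Rgcc, held 2652 and 3716 of those in mock 2 and mock 3. The clusters that held at least 30 cells in every library, led by Esm1, Aqp1, Cdkn1a, Glul, Vwf or Cldn5, each had a ligated sum inside the mock range.

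In macrophages or monocytes, 5 of the 37 members lay above every mock library and 7 below, where 25.9% and 23.4% of all genes did. The median log2 fold change was -0.15 over the members and -0.01 over all genes, and over the members -0.26 without mock 1 and -0.02 without mock 2. Irgm1 stood at 16.9 CPM in the ligated library against 22.4, 48.6 and 48.2 CPM, a log2 fold change of -1.32 ± 0.44 (edgeR, adjusted p = 0.27). Iigp1 was at 26.4 CPM against 25.2, 61.0 and 121 CPM, a log2 fold change of -1.48 ± 0.67 (edgeR, adjusted p = 0.39). edgeR without the filter on low counts called Iigp1 (adjusted p = 0.020), where 4.67% of all genes passed. For both genes the ligated library lay near mock 1. Rsad2 was at 78.8 CPM against 104, 123 and 148 CPM, Bst2 at 848.3 CPM against 957.4, 1353 and 1333 CPM and Ifi27l2a at 747.8 CPM against 898.6, 976.9 and 1010 CPM, all 3 below every mock library. Ifit3b was at 16.4 CPM against 14.0, 41.9 and 32.7 CPM. Isg15 (149 CPM against 72.8, 153 and 176 CPM), Samhd1 (173 CPM against 101, 156 and 165 CPM) and Sp100 (130 CPM against 120, 165 and 174 CPM) were the other members with most UMIs, and Samhd1 alone of these 3 lay above the mock range. Endothelial cells held more Rsad2 and Iigp1, and endothelial markers in the macrophage class summed to 438 CPM in the ligated library against 1633, 1254 and 1984 CPM, with 7 of 8 below every mock library and 0 at 0 UMIs. Markers of conventional dendritic cells summed to 5183 CPM against 7982, 10490 and 9725 CPM, with 2 of 8 below every mock library and 1 of 8 at 0 UMIs in all. H2-Ab1 in this list was also a leading gene of the macrophage clusters led by C1qa and by H2-Eb1. This sum is therefore not a measure of dendritic cells alone. The part of both marker lists in these levels was not tested.

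The macrophage class was also spread over clusters differently. A cluster led by C1qa, C1qc and Ms4a7 held 422 of the 543 ligated cells but 33 of 56 in mock 1, 93 of 268 in mock 2 and 115 of 344 in mock 3, and a cluster led by H2-Eb1, Cd74 and H2-Aa held 121, 23, 175 and 229. The median ligated cell had 6277 UMIs, against 5475, 2033 and 2163 in mock 1, 2 and 3. Within the C1qa cluster the summed level was 3460 CPM in the ligated library against 3635, 4504 and 4183 CPM, below every mock library, with 7 of 37 members above and 13 below, where 26.8% and 16.7% of all genes with a UMI were. Mock 1 rests on 33 cells there. For 23 of the 37 members in the class the ligated library and mock 1 both lay below mock 2 and mock 3, and for 0 both lay above, where 28.4% and 26.5% of all genes did. With edgeR, 0 members were higher and 1 lower at an unadjusted p below 0.05, where 13.4% of all genes passed that level. With DESeq2, 0 members passed after adjustment, where 106 of the 16286 genes tested did. Without mock 1, 7 passed, all lower, where 24.4% of all genes did, and with the version term 2 did (Ifit3 and Isg15), both higher, where 4.05% did, so the direction turned with the handling of mock 1.

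**Figure D2:**
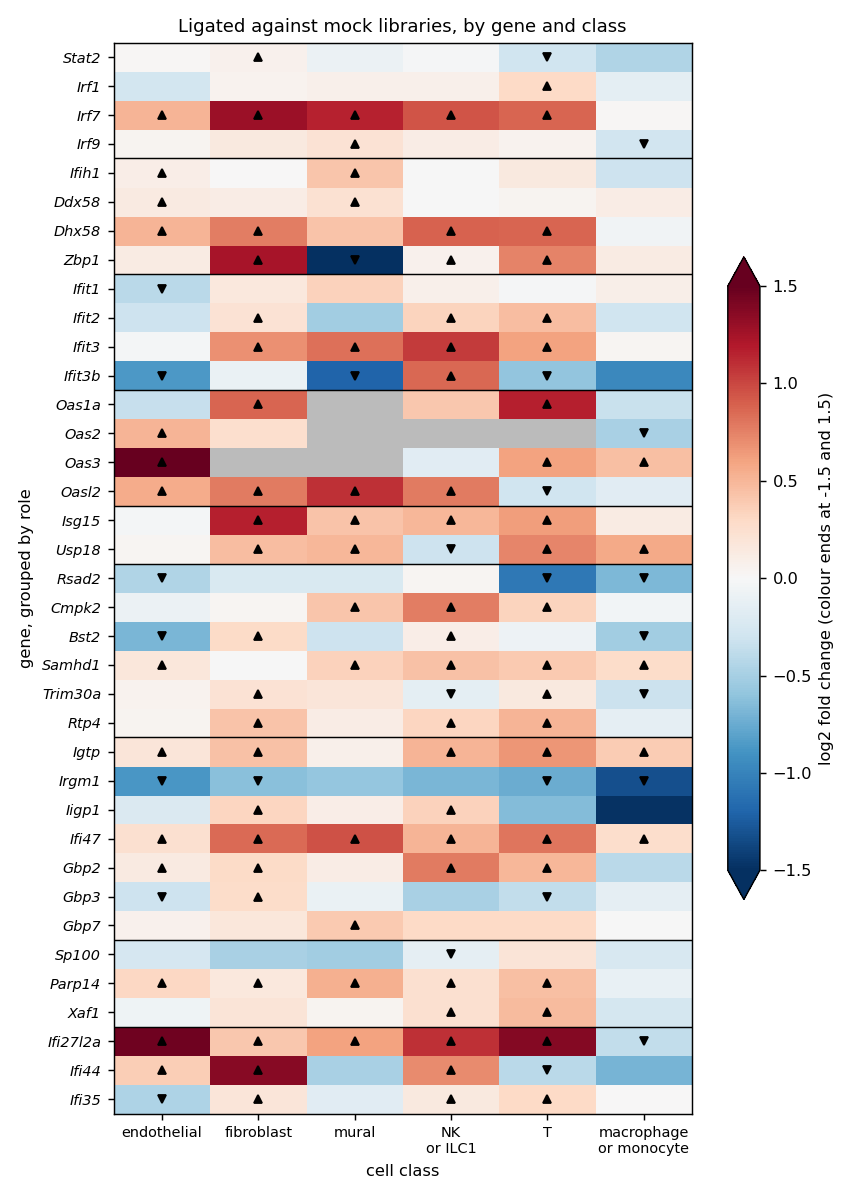
Log2 fold change of the ligated library against the 3 mock libraries (colour) for 37 interferon-stimulated genes (rows, grouped by role with lines between groups) in 6 cell classes (columns). Triangles mark genes whose ligated library lay above (pointing up) or below (pointing down) every mock library, and grey marks genes that were not tested, such as Oas3 in fibroblasts. Irf7 is marked upward in 5 classes and Ifi47 in 6.

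Across the classes, a few genes had the same position in most of them. The classes share their 4 libraries, so these are not independent repeats. The share of all genes with the same position in as many classes was not counted, so whether these counts are unusual is not known. Ifi47 lay above every mock library in 6 of 6 classes, with log2 fold changes from 0.24 in endothelial cells to 0.96 in mural cells. Irf7, Samhd1, Igtp, Parp14 and Ifi27l2a did so in 5 of 6. Irf7 in macrophages was at 87.6 CPM against 56.0, 82.9 and 113 CPM, inside the mock range, and Ifi27l2a in macrophages was below it. Igtp, a GTPase of the same family as Ifi47, was inside the range in mural cells only, and Parp14, an ADP-ribosyltransferase, in macrophages only. Irgm1 lay below every mock library in 4 of 6 classes and above in 0. In all 6 classes its values parted by software version, with the ligated library and mock 1 both below mock 2 and mock 3. The other signalling members, Stat2 and Irf9, lay above in 1 class and below in 1 class each, and Irf1 lay above in T cells alone. Of the RNA sensors, Dhx58 lay above in 4 classes, Ifih1 (MDA5) in 2 and Ddx58 (RIG-I) in 2, and none of these lay below in any.

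**Figure D3:**
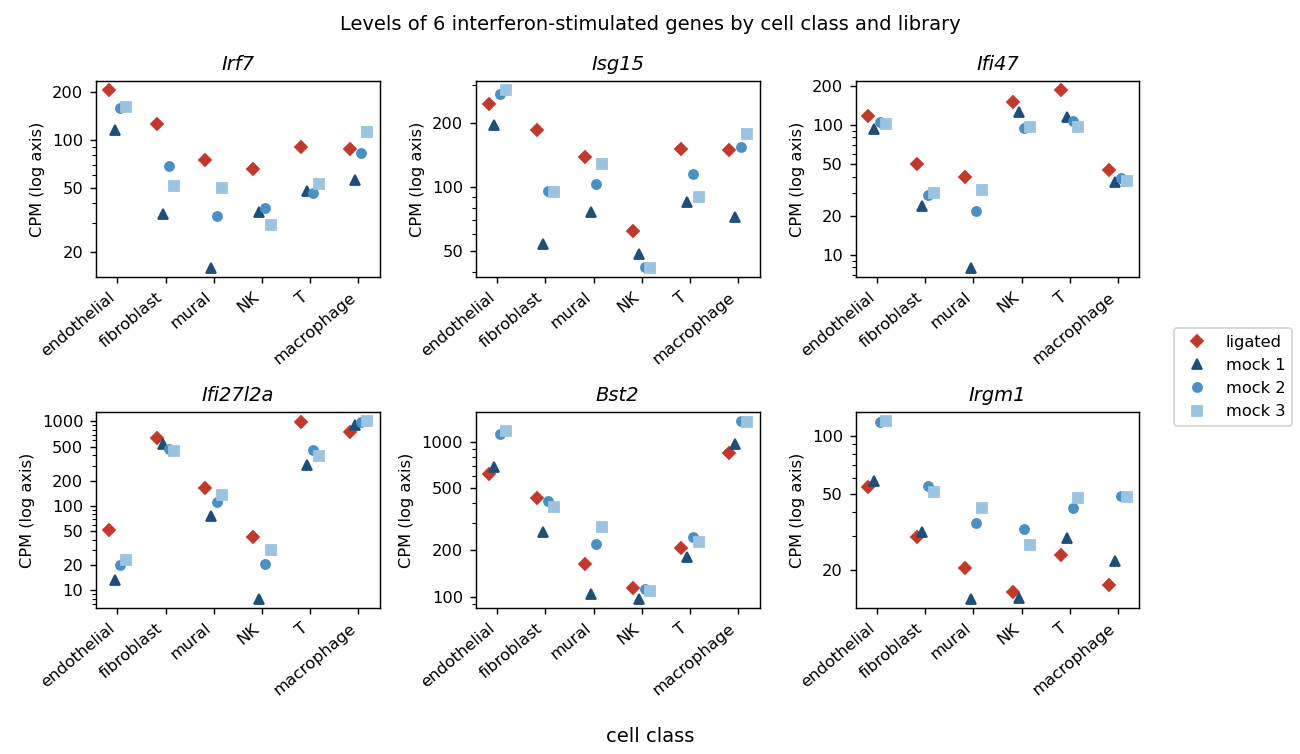
Level (CPM, log axis) of 6 interferon-stimulated genes in each cell class, with 1 point per library. Irf7 in NK or ILC1 cells is at 65.6 CPM in the ligated library against 29.1 to 37.4 CPM in the mock libraries, while Irgm1 in endothelial cells pairs the ligated library (53.9 CPM) with mock 1 (58.4 CPM) below mock 2 and mock 3.

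The difference between fibroblasts and endothelial cells was then tested in 1 fit with a term for each library, which removes what a library changes alike in both classes. In this fit 3.37% of the 15225 genes tested passed, and 2 of the 37 members did, both more positive in fibroblasts. For Isg15 the fibroblast log2 fold change exceeded the endothelial one by 1.26 ± 0.18 (edgeR, adjusted p = 0.014): its fibroblast level was 184 CPM against 54.2, 95.5 and 95.2 CPM, and its endothelial level 246 CPM against 195, 274 and 285 CPM. For Bst2 the excess was 1.01 ± 0.21 (edgeR, adjusted p = 0.048), with fibroblasts at 432 CPM against 264, 412 and 382 CPM and endothelial cells at 613.7 CPM against 682.8, 1118 and 1165 CPM. For Isg15 the ligated fibroblasts stood apart and the endothelial value lay inside the mock range, and for Bst2 the endothelial value lay below its range. The next were Ifi44 (1.02 ± 0.23, adjusted p = 0.055), Zbp1 (1.19 ± 0.27, adjusted p = 0.061) and Ifit3 (0.76 ± 0.18, adjusted p = 0.063), which did not pass with edgeR. DESeq2 called Isg15 and Bst2, at adjusted p = 0.0024 and 0.0019, where 1.69% of all genes passed. At an unadjusted p below 0.05, 15 members were more positive and 1 more negative in fibroblasts with edgeR, where 18.9% of all genes passed that level. Leaving out mock 3 ended both calls (adjusted p = 0.074 for Isg15 and 0.27 for Bst2), leaving out mock 2 ended that of Bst2 (adjusted p = 0.29), and leaving out mock 1 gave 21 calls, of which 20 were positive. Of all genes, 1.18% passed without mock 3, 2.01% without mock 2 and 24.6% without mock 1. Within the Spp1 cluster, which held most ligated fibroblasts, Isg15 and Bst2 lay inside the mock range (Bst2 at 406 CPM against 264, 453 and 562 CPM), and the part of the different cluster makeup in these calls was not tested. Under an earlier rule for naming clusters with the highest doublet scores removed, 33 ligated fibroblasts were left, neither gene passed and the value for Isg15 was -0.51.

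**Figure D4:**
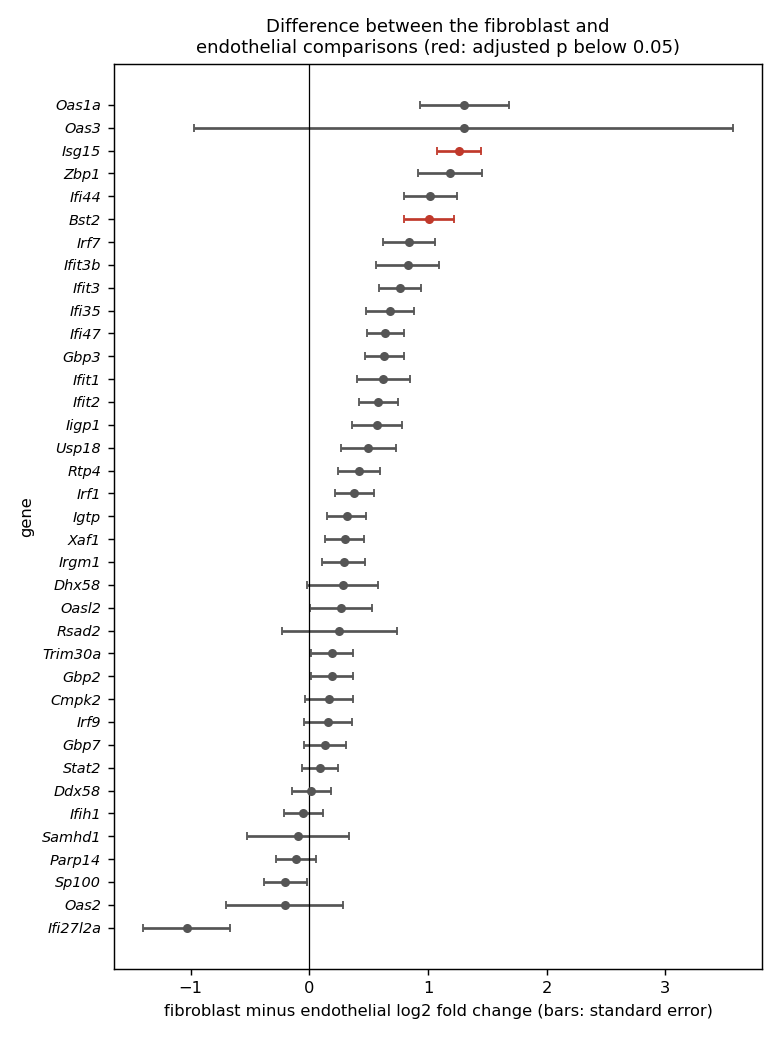
Difference between the fibroblast and the endothelial log2 fold change (ligated against mock) for each of the 37 interferon-stimulated genes, with bars for the standard error. Isg15 (1.26) and Bst2 (1.01), in red, had an adjusted p below 0.05, and Ifi27l2a (-1.03) is the farthest to the left of 0.

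The difference between NK or ILC1 cells and endothelial cells, tested in the same way, gave 0 of 37 members, where 1.56% of the 14986 genes tested passed. At an unadjusted p below 0.05, 11 members were more positive and 1 more negative in NK or ILC1 cells with edgeR, where 12.4% of all genes passed that level. With DESeq2, 0 members passed after adjustment, where 277 of the 21593 genes tested did. The 5 members with the smallest p were Ifit3b (1.80 ± 0.43, edgeR, adjusted p = 0.14), Ifit2 (0.74 ± 0.18), Bst2 (0.84 ± 0.23), Ifi35 (0.69 ± 0.19) and Iigp1 (0.65 ± 0.18). Ifit3b in NK or ILC1 cells rests on 50 UMIs in the ligated library (2.64 CPM against 0.955, 0.904 and 2.31 CPM). Without mock 1, 23 members passed, where 24.2% of all genes did, and without mock 3 Ifit3b did (adjusted p = 0.030), where 1.7% did.

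The members were also counted per cell. Each cell was thinned to 2000 UMIs, leaving out shallower cells, and the members with a UMI were counted. Of the thinned T cells, 37.0% in the ligated library (1380 cells) held at least 5 members, against 22.9% (157 cells), 26.9% (253 cells) and 23.1% (334 cells) in mock 1, 2 and 3. Unthinned, the shares were 78.6% against 61.9, 69.7 and 64.3%. The median thinned T cell held 4 members in the ligated library and 3 in each mock library. In fibroblasts the thinned share was 32.9% against 25.5, 29.1 and 28.7%, and in NK or ILC1 cells 13.8% against 10.4, 9.17 and 8.19%. In these 3 classes the ligated library was the highest. In endothelial cells it was 76.0% against 72.1, 84.2 and 83.6%, in mural cells 15.9% against 8, 18.5 and 21.3%, and in macrophages 38.1% against 38.5, 47.4 and 55.0%. Thinning left out 758 of 4077 ligated endothelial cells, and 92, 17, 133 and 164 macrophages in the ligated library and mock 1, 2 and 3. Free RNA in droplets gives UMIs in cells that do not express a gene, and the share of thinned cells with no member reached 18.9 to 30.4% in mural cells against 0.0638 to 0.241% in endothelial cells.

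**Figure D5:**
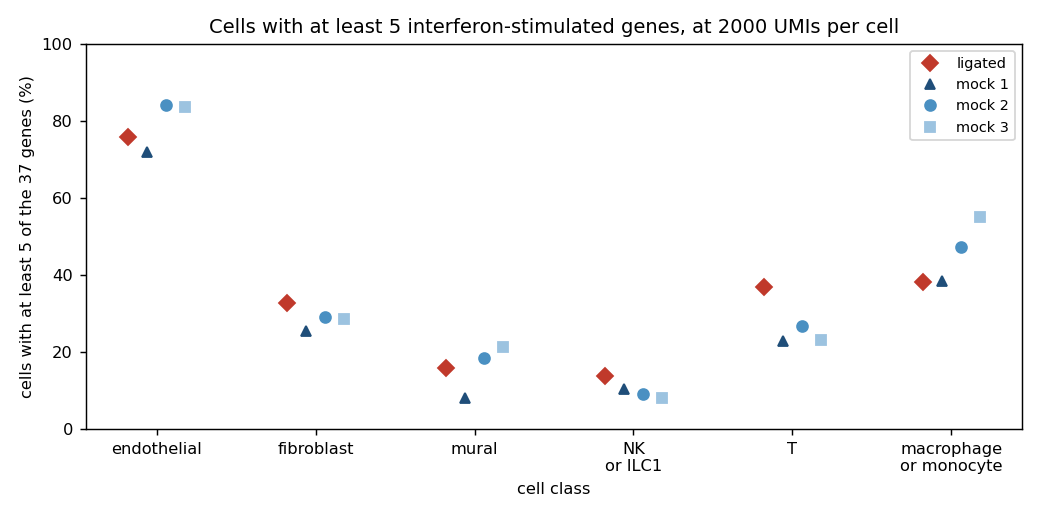
Share of cells (%) with a UMI of at least 5 of the 37 interferon-stimulated genes after thinning each cell to 2000 UMIs, with 1 point per library and cell class. In T cells the ligated library is at 37.0% and the mock libraries at 22.9 to 26.9%, and in endothelial cells the libraries lie at 72.1 to 84.2%.

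The rest of the pathway was read from lists of ligands, receptors, kinases, sensors and adaptors, feedback genes and interferon gamma targets. None of their genes passed in any class with edgeR. At an unadjusted p below 0.05, 9.18% of all pairs of a gene and a class passed, against which the counts of pairs that follow can be read. Of the 10 interferon ligands, Ifng alone passed the filter, in endothelial, NK or ILC1 and T cells. In NK or ILC1 cells it was at 28.9 CPM in the ligated library against 37.7, 33.4 and 36.2 CPM, below the mock range, and in T cells at 78.8 CPM against 101, 54.1 and 57.3 CPM, inside it. In endothelial cells it rested on 15 UMIs in the ligated library. Ifna1, Ifnb1 and Ifnk had 1 UMI in 1 library each, in fibroblasts, macrophages and NK or ILC1 cells. The other 6 ligands, Ifna2, Ifna4, Ifna5, Ifne, Ifnl2 and Ifnl3, had 0 UMIs in these 6 classes.

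Among the interferon gamma targets, Cxcl9, a chemokine that draws T cells, stood at 83.9 CPM in ligated fibroblasts against 1.87, 3.93 and 8.31 CPM, a log2 fold change of 4.07 ± 0.59 (edgeR, adjusted p = 0.18). Irf8 in endothelial cells was at 17.8 CPM against 6.12, 4.30 and 4.93 CPM (1.80 ± 0.27, edgeR, adjusted p = 0.36). Of the 71 gene and class pairs tested in this list, 5 were higher and 3 lower at that p, a share near that of all pairs. Of the receptors, Ifngr2 in T cells was at 4.94 CPM against 12.2, 17.1 and 16.01 CPM (-1.63 ± 0.41, edgeR, adjusted p = 0.36) and Ifngr1 in fibroblasts at 338 CPM against 494, 476 and 482 CPM (-0.52 ± 0.17, edgeR, adjusted p = 0.40). Both were below every mock library, and 1 of 32 receptor pairs was higher and 2 were lower at that p.

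Of the kinases, Jak2 in T cells was at 40.4 CPM against 60.0, 73.5 and 73.3 CPM (-0.78 ± 0.28, edgeR, adjusted p = 0.43) and Jak1 in endothelial cells at 274 CPM against 223, 192 and 188 CPM (0.45 ± 0.18, edgeR, adjusted p = 0.57). Of the sensors and adaptors, Sting1 in mural cells was at 15.3 CPM against 5.78, 4.23 and 6.22 CPM (1.48 ± 0.46, edgeR, adjusted p = 0.79) and Irf5 in endothelial cells at 1.64 CPM, from 32 UMIs, against 0.204, 0.125 and 0.411 CPM, with 5 pairs higher and 0 lower of 47. Of the feedback genes, Ptpn6, a phosphatase of blood cells, was at 18.3 CPM in ligated fibroblasts against 3.74, 5.34 and 4.79 CPM (1.96 ± 0.33, edgeR, adjusted p = 0.21) and at 6.55 CPM in endothelial cells against 0.884, 0.417 and 0.299 CPM. In this list 4 pairs were higher and 1 lower of 36. The summed T and macrophage markers given above for fibroblasts and endothelial cells were likewise above every mock library, and their part in these values was not tested.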

How the data were processed

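The authors deposited 1 matrix of UMI counts per library, with barcodes called as cells; the values are raw counts and were not normalized. Cell Ranger 6.0.1 or 7.0.0 was used per the file headers, and Cell Ranger 7.0.1 with mm10 per the submitters' processing notes; the mismatch was not resolved. The members and gene lists were chosen with earlier results of these data known.

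Genes were joined by ID, leaving out 0.0538 to 0.456% of the UMIs of a library. Cells with under 500 UMIs, under 300 genes or over 15% mitochondrial UMIs were removed, as were doublets called by Scrublet (748, 72, 0 and 1 barcodes in the ligated library and mock 1, 2 and 3; at 0% and 0.00758% the caller had not worked in mock 2 and mock 3). Cells were clustered with scanpy 1.11.5 (2000 variable genes, 30 principal components, 15 neighbours, Leiden resolution 1.0) into 40 clusters, which were named from markers. A condition of the naming rule, on possible doublets, was changed after the alternatives had been seen; the classes and their cells in the analysis as reported are identical under both rules. Clusters led by kallikrein or secretory genes of the gland, such as Klk1, were left unnamed, since under 3 markers of a class were detected or other classes' markers led. The largest unnamed cluster scored highest for endothelial markers but had low UMIs and no leading marker (128 ligated and 688 and 971 mock 2 and 3 cells, 78 in mock 1). Possible doublets and cycling cells were also unnamed. Unnamed cells numbered 892 of 12564 (ligated), 398 of 4518, 1701 of 9246 and 2375 of 12689 (mock 1 to 3), an uneven loss, and were not tested.

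UMIs were summed per library and class. They were tested with edgeR 4.0.16 (TMM, filterByExpr, quasi-likelihood F test, Benjamini-Hochberg over all genes of a class), and with DESeq2 1.42.0 as an alternative. The edgeR test was also run on simulated counts, in which all mock libraries had the same mean levels. Such counts lack the split between mock 1 and the other mock libraries, so they cannot tell how the test behaves on these data. Differences between classes were tested with a term for each library. Any member could be named: fold changes are given for the 5 members with the smallest p in each test and for 2 genes of each pathway list, and levels for the 5 members with the highest mean CPM in a class. Other members printed with values, and single clusters, were chosen after their values were seen. The CPM minimum behind the share of all genes that were highest in endothelial cells was also chosen after seeing the data. Counting error alone limits genes with few UMIs. Promoter windows are from RefSeq (GRCm38.p6), and gene positions from GENCODE annotation of GRCm38. The counts of 1 pathway list are not reported here.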

Additional observations from a re-analysis of the deposited data

Results flagged for a closer look

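Isg15 and Bst2 differed between fibroblasts and endothelial cells: the fibroblast log2 fold change (ligated against mock) exceeded the endothelial one by 1.26 for Isg15 and by 1.01 for Bst2 in edgeR's test of the difference itself (adjusted p = 0.014 and 0.048). Without mock 3 neither passed (adjusted p = 0.074 and 0.27), and without mock 2 Bst2 did not (adjusted p = 0.29). Of the 37 members, 13 had a ligated library above every mock library in at least 1 class and below every mock library in another. The share of all genes that do so was not counted, so whether this number is unusual is not known. For Bst2 the classes farthest apart were fibroblasts and endothelial cells, the pair tested above. For the other 12 the difference between the classes named here, those farthest apart in log2 fold change, was not tested. The gap in log2 fold change was 3.04 for Zbp1 between fibroblasts and mural cells and 2.07 for Ifit3b between NK or ILC1 and mural cells; the mural value of Zbp1 rests on 2 UMIs in the ligated library. Between endothelial cells and macrophages it was 1.82 for Ifi27l2a and 1.00 for Oas2, and between endothelial and T cells, with T cells higher, 0.76 for Ifi35. Between fibroblasts and T cells, with fibroblasts higher, it was 1.77 for Ifi44, 0.64 for Gbp3 and 0.35 for Stat2. It was 1.39 for Oasl2 between mural and T cells, 1.04 for Usp18 between T and NK or ILC1 cells, 0.54 for Trim30a between fibroblasts and macrophages and 0.51 for Irf9 between mural cells and macrophages.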

How the results depend on the processing

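The calls depended on whether mock 1 was left out and on whether a version term was fitted. By the file headers mock 1 is the only mock library with the ligated library's version. What is particular to mock 1 and the version therefore cannot be told apart. The number of members called ranged over the fits that left out 1 mock library from 0 to 24 in endothelial cells, 0 to 21 in fibroblasts, 0 to 5 in mural cells, 0 to 20 in NK or ILC1 cells, 0 to 20 in T cells and 0 to 7 in macrophages, with each highest number without mock 1, where 62.1, 56.8, 17.1, 57.3, 39.3 and 24.4% of all genes were called, so most of these counts are near the share of all genes. With the version term 21, 18, 10, 8, 5 and 2 members were called, beside 33.6, 26.5, 6.7, 12.5, 4.93 and 4.05% of all genes, DESeq2 called 1 in endothelial and 1 in T cells, and edgeR without the low count filter called 1 in T cells and 1 in macrophages. For the fibroblast against endothelial difference the range without 1 mock library was 0 (without mock 3) to 21 (without mock 1), with 2 from all libraries, and for NK or ILC1 cells 0 to 23 (0 with all). The log2 ratio of the sums over mock 1 alone was 0.030 (endothelial), 0.47 (fibroblast), 0.86 (mural) and 0.070 (macrophage). Without library scaling it was 0.20 in fibroblasts and 0.17 in NK or ILC1 cells, without the highest member 0.26 in NK or ILC1 and 0.28 in T cells, and with the highest doublet scores removed 0.70 in T cells. Under that setting Rsad2 in T cells turned to 0.012, and under the version term Iigp1 and Ifit3b in macrophages turned to 0.068 and 0.23 (log2 fold change). The cause was not tested. The earlier naming rule, chosen as an alternative after seeing the data, gave 0 calls for the fibroblast against endothelial difference with the highest doublet scores removed and 0 with a 10% mitochondrial limit; with the highest scores removed the fibroblast sum was at 0.034, Ifi44 in fibroblasts at -1.53 and the Isg15 difference at -0.51, from 33 ligated fibroblasts, and the T cell values were again 0.70 and 0.012. Macrophages under the doublet setting were not run, since mock 2 and mock 3 held 20 and 15 cells. No paired analysis was possible because the groups share fewer than 2 replicate numbers.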

Other observations

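Mx1, a GTPase that blocks the replication of influenza and other viruses, had its ID in the gene list of mock 1 only. There it had 92 UMIs in 56 of 4798 barcodes, or 3.08 CPM over the whole library. Its level in the other libraries was not analysed here.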
